A study of Mus musculus with 2 samples.

Results

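Interferon-stimulated genes and the receptors and transcription factors that control them were followed in haematopoietic stem cells (HSCs), from which every blood lineage descends. The set holds 46 genes, listed by symbol and matched to Ensembl identifiers, of 37820 genes in the deposited gene table and 28009 genes obtained by summing the transcript table. All 46 genes were found in both tables. They comprise 4 receptor subunits, 7 transcription factors and 35 effectors in 6 groups. The adult HSCs came from B6129SF1 mice of 6 to 8 weeks, whose bone marrow was dissected and sorted; 2 samples, replicates 1 and 2, are labelled so. Fetal HSCs came from liver at E14.5, per the labels' protocol, and no fetal sample was analysed here apart from these columns. Polyadenylated RNA was sequenced to compare gene expression in fetal and adult HSCs, within work on spatial genome organisation. Each table holds 1 column headed FL, for fetal liver, and 1 headed BM, for bone marrow, in FPKM (fragments scaled to feature length and to the mapped fragments of a library), which are comparable between genes of different length. The columns were read as the authors' means over libraries. They carry no replicate values, so the error of a value is unknown, no test was possible, and higher and lower below describe the columns only. The sequencing depth is unknown as well. Sort markers and mice per library are not given in these sources.

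Interferons are secreted proteins that warn cells of infection. Type I interferons bind the receptor of IFNAR1 and IFNAR2 and type II interferon that of IFNGR1 and IFNGR2. JAK kinases bound to the receptors then activate STAT proteins, and a complex that holds STAT2 and IRF9 binds the interferon-stimulated response element (ISRE), while STAT dimers bind the gamma-activated site (GAS). The genes switched on in this way block virus entry, translation and replication, sense viral RNA or attack intracellular parasites. In adult bone marrow, interferons are known to push dormant HSCs into cycle, and stem cells are known to keep some interferon-stimulated genes on without infection.

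Sequences upstream of the genes are shown first because the ISRE is the DNA element that the effector genes are known for. RefSeq promoters (build GRCm38.p6, 250 bases before to 50 after the annotated start) were found for 37 of the 46 genes, and those unmatched were Usp18, Mx1, Mx2, Oas2, Parp14, Rtp4, Ifi27, Dhx58 and Iigp1. Both strands were searched for the core of the ISRE, GAAA followed after any 2 bases by GAAA (TTTC and TTTC with the same gap on the other strand), and for the GAS, TTCNNNGAA, which reads the same on both strands. A gene with several promoters in the table counted once. Matches may overlap each other, and a match describes letters, not a bound site. At least 1 ISRE match stood in the promoter of 19 of the 37 genes (51.4%), against 1079 of 27025 genes in the whole table (3.99%). A GAS match stood in 14 of 37 (37.8%), against 2582 of 27025 (9.55%). All 6 matched genes of the GTPase group held an ISRE match, as did 3 of 4 membrane restriction factors and 3 of 4 genes of the IFIT and ISG15 group. No receptor gene (0 of 4) and no immunoproteasome gene (0 of 2) did.

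The 160 bases before the annotated start are printed for the GTPase genes, the group with the largest median difference between columns below. Capitals mark ISRE matches, and positions are counted from -1, the base before the start. The stretches, 5′ to 3′, are chr3:142620503-142620662 on the plus strand for Gbp2, chr3:142559884-142560043 on the plus strand for Gbp3, chr3:142530176-142530335 on the plus strand for Gbp7, chr11:58199396-58199555 on the plus strand for Igtp, chr11:58214817-58214976 on the plus strand for Irgm2, and chr11:48871421-48871580 on the minus strand for Irgm1.
Gbp2: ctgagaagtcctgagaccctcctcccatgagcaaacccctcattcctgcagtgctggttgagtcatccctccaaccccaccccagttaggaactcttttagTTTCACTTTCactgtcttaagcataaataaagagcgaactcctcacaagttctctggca
Gbp3: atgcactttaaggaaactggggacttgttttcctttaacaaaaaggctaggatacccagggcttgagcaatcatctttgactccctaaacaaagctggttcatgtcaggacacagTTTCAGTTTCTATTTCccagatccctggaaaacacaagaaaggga
Gbp7: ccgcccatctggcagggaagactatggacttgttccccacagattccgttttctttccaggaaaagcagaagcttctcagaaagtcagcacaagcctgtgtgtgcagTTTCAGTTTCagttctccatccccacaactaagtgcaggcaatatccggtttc
Igtp: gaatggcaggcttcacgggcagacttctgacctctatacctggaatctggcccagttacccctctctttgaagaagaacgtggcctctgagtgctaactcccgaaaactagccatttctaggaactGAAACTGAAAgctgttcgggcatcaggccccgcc
Irgm2: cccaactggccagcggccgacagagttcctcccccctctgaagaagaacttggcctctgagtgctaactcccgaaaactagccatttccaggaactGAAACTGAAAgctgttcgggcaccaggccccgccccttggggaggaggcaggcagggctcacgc
Irgm1: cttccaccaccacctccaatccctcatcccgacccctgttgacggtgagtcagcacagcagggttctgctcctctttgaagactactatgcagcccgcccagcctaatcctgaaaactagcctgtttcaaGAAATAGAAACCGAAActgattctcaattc
The match began at -59 in Gbp2, -53 in Gbp7, -34 in Igtp and -64 in Irgm2. Gbp3 (-45 and -39) and Irgm1 (-30 and -24) each held 2 overlapping matches. In Igtp and Irgm2, which lie next to each other, a GAS match preceded the ISRE match by 11 bases (at -45 and -75). The printed stretches of these genes share an identical run of 38 bases, from -80 in Igtp and -110 in Irgm2. That run ends within the GAS match and before the ISRE match.

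For comparison, 5 antiviral effector genes with a match and Ifitm1, the second most abundant gene of the set in BM of the transcript table, are shown. The stretches are chr4:156200819-156200978 on the minus strand for Isg15, chr19:34640729-34640888 on the plus strand for Ifit1, chr19:34583369-34583528 on the plus strand for Ifit3, chr5:120777660-120777819 on the minus strand for Oas3, chr12:26456453-26456612 on the minus strand for Rsad2, and chr7:140967916-140968075 on the plus strand for Ifitm1.
Isg15: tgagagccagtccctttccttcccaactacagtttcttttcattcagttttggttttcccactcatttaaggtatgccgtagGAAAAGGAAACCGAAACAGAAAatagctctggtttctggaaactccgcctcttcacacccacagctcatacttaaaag
Ifit1: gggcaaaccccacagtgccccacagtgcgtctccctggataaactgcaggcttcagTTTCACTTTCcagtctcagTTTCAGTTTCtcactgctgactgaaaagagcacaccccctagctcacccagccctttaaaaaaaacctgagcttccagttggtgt
Ifit3: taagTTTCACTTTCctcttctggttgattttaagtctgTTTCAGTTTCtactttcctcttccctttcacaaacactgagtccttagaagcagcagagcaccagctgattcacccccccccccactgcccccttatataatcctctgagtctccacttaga
Oas3: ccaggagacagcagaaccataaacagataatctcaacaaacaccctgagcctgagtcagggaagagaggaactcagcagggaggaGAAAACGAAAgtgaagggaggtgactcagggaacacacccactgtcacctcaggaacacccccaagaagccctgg
Rsad2: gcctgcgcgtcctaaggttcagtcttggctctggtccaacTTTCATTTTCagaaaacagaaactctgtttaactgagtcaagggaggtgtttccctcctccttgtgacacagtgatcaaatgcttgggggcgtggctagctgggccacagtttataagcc
Ifitm1: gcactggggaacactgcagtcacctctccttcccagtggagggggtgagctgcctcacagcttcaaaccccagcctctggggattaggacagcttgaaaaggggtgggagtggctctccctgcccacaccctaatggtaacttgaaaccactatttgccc
Isg15 held 3 overlapping ISRE matches from -78 to -57, and Ifit1 held 2 separate ones at -104 and -85. No ISRE or GAS match stood in the Ifitm1 promoter, which says only that these letters are not in this window.

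The column headers of the 2 tables do not correspond for these genes. The BM column of the gene table lay within 1.5-fold of the FL column of the transcript table for 40 of the 46 genes, with a median log2 ratio of -0.07. Only 15 of 46 genes lay that close between the columns headed BM and 20 between the columns headed FL. For the whole tables, counting genes that reached 1 FPKM in each column of a pair, these shares were 90.0%, 59.3% and 49.1%. Hmga2, a chromatin protein gene typical of fetal HSCs, stood at 96.5 FPKM under BM in the gene table and at 3.27 FPKM under BM in the transcript table. Lin28b, another fetal gene, was at 9.65 FPKM under BM of the gene table, near its 8.51 FPKM under FL of the transcript table. The 2 tables are therefore described apart, and higher and lower in BM of the gene table are not read as adult against fetal. The transcript table, in whose BM column Lin28b was low too (8.51 in FL and 0.304 FPKM in BM), is taken first. The 6 genes outside 1.5-fold were Stat2, Irf3, Mx1, Samhd1, Ifih1 and Trim25, whose transcript sums were the lower ones. Stat2 was the farthest apart, with a transcript sum of 2.65 FPKM under FL against 7.88 FPKM in BM of the gene table. Transcripts that could not be linked to a gene carried 10.4% of the FPKM in FL and 10.9% in BM, so such sums may be incomplete.

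**Figure D1:**
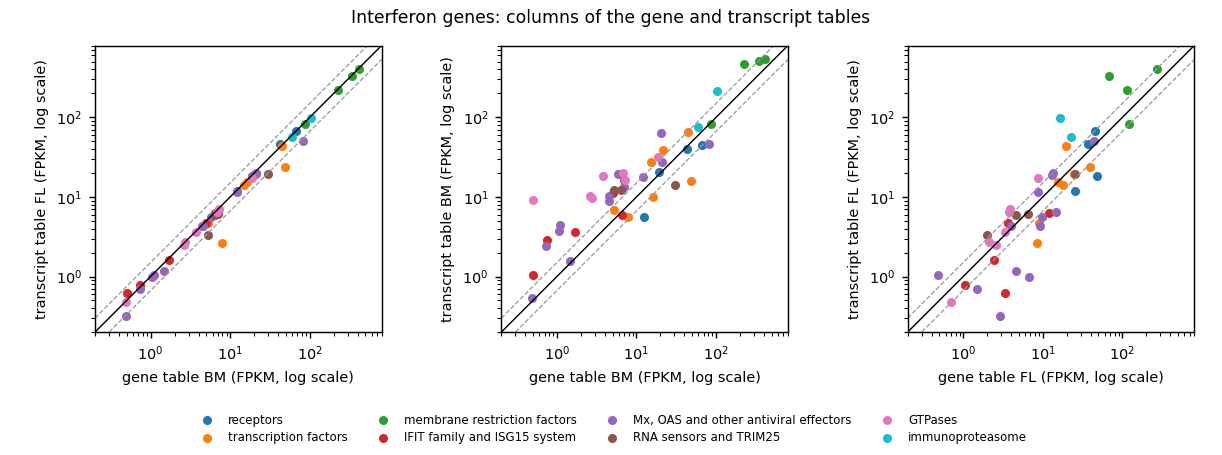
Each point is 1 of the 46 genes, coloured by role, with FPKM on log axes; the solid line marks equal values and the dashed lines 1.5-fold. Points follow the line for BM of the gene table against FL of the transcript table (40 of 46 within 1.5-fold) and scatter for BM against BM (15 of 46) and for FL against FL (20 of 46).

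Markers of HSCs and of other cells were read in the same columns. All 9 HSC markers, among them Kit, Procr, Mecom and Hlf, were at 1 FPKM or more in both columns of the transcript table. Macrophage markers (9 genes) summed to 189 in FL and 6.90 FPKM in BM, and those of neutrophils and monocytes (7 genes) to 487 and 94.7 FPKM. Of the plasmacytoid dendritic cell markers, the defining gene Siglech was at 0.133 FPKM in FL and 0 in BM, and Ly6d and Klk1 were at 0 in both. The list of 7, of which 6 genes were in the table, summed to 101 and 116 FPKM, nearly all of it from Bst2 and Tcf4, which other cells express as well. Markers of megakaryocytes (4 genes) went the other way, from 96.8 to 711 FPKM. The sum for T and NK cells (6 genes) went from 5.73 to 23.1 FPKM, most of it from Nkg7 (4.31 and 21.0 FPKM). Klrb1c was at 0.440 and 2.13 FPKM, Gzma at 0.941 and 0 FPKM, and Cd3e at 0.0354 and 0.00984 FPKM. Cd3d and Ncr1 were at 0 in both columns. Sums were lower in BM for B cells (3.25 and 0.549 FPKM), endothelium (46.1 and 30.0 FPKM), hepatocytes (18.0 and 3.10 FPKM) and erythroid cells (197 and 24.2 FPKM), while those of stroma were 10.7 and 13.5 FPKM. The immediate early gene Fos was at 0.422 in FL and 158 FPKM in BM. The part of these differences in the values of the interferon genes was not tested, and in bulk samples fewer cells of a type and less RNA per cell cannot be told apart.

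More than 1 in 2 expressed effector genes of the interferon response were higher in BM than in FL of the transcript table. No receptor gene was, but 4 genes are too few to set against the 13.3% of all expressed genes given below. A gene was called expressed at 1 FPKM or more in either column, and higher or lower where its relative log2 ratio reached 2-fold. That ratio is log2((BM + 0.1) / (FL + 0.1)) minus its median over genes expressed in both columns, and it understates differences of genes near 0.1 FPKM. Folds in parentheses are plain ratios of the 2 values. Of 45 expressed members 21 were higher in BM, 23 were within 2-fold and 1 was lower. Among all 12220 expressed genes, 13.3% were higher and 8.82% lower by the same rule (13.4% and 8.8% without centring). At 3-fold, 11 members were higher and 0 lower, beside 6.48% and 4.88% of all expressed genes, and at 1.5-fold 29 were higher and 2 lower, beside 23.6% and 19.1%. The median relative log2 ratio was 0.996 over the 45 genes and 0.02 over all expressed genes. Of 34 expressed effectors 20 were higher and none was lower (median 1.12). Of the 11 receptors and factors 1 was higher and 1 lower (median 0.18). Mx1 was the unexpressed member, at 0.316 in FL and 0.533 FPKM in BM. Mx1 encodes an antiviral GTPase and is disrupted in many laboratory mouse strains.

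**Figure D2:**
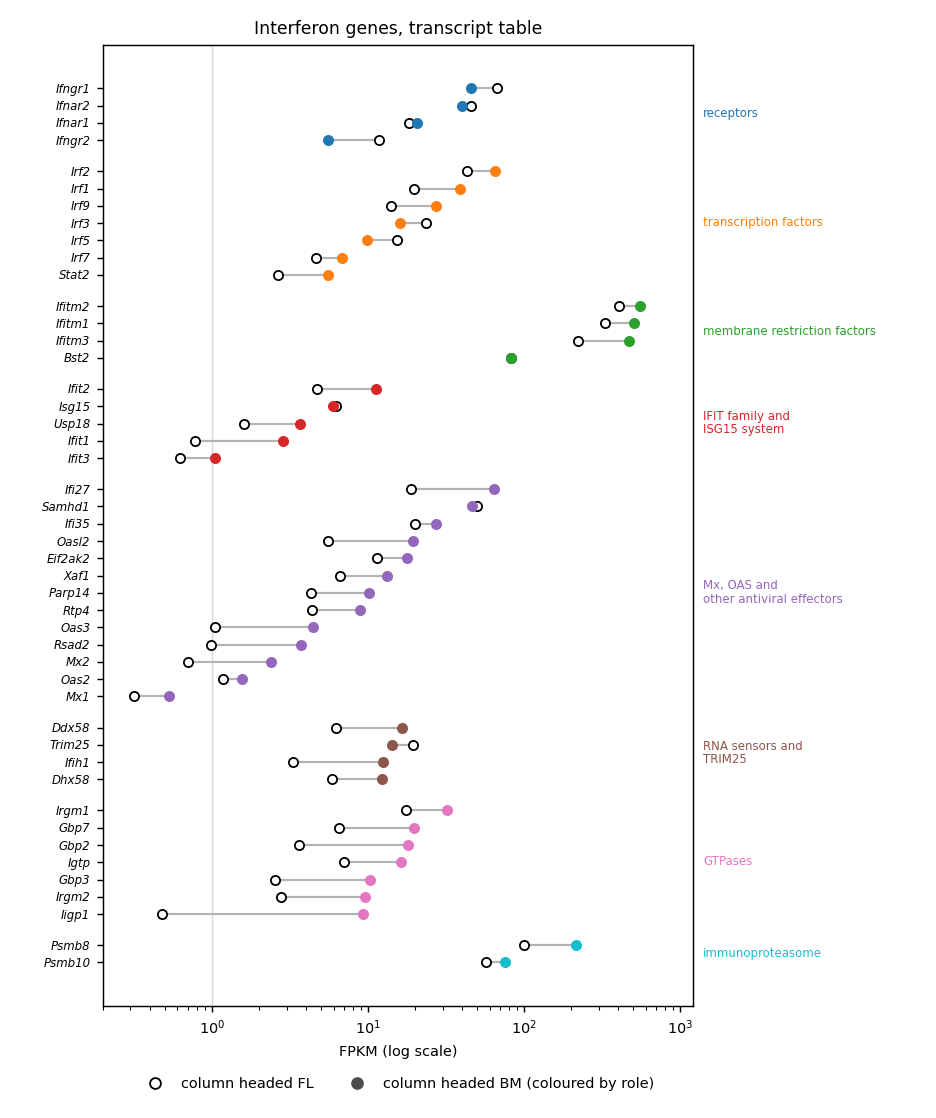
FPKM (log axis) of each of the 46 genes in the transcript table, grouped by role; open circles are the FL column, filled circles the BM column, and each circle is 1 column value without error. Filled circles lie to the right for 37 of 46 genes after centring, and furthest for Iigp1 (0.476 to 9.22 FPKM), while 3 of the 4 receptors lie to the left.

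Receptor subunits were expressed in both columns. Ifngr1, the ligand-binding chain of the type II receptor, was the highest, at 66.8 in FL and 45.4 FPKM in BM. The type I receptor genes Ifnar2 (46.0 and 40.1 FPKM) and Ifnar1 (18.1 and 20.6 FPKM) had nearly equal values in both columns. Ifngr2, the signalling chain of the type II receptor, was the only member at least 2-fold lower in BM, at 11.8 and 5.57 FPKM (2.12-fold). That call lay close to the threshold and was lost with a pseudocount of 1 FPKM, where no member was lower. In both columns IFNAR2 had more mRNA than IFNAR1, and IFNGR1 more than IFNGR2, per length.

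The transcription factors differed in direction. Genes of the factor complex that binds the ISRE were about 2-fold higher in BM: Stat2, which carries the transactivation domain, was at 2.65 and 5.53 FPKM (2.09-fold), and Irf9, which binds the DNA, at 13.9 and 27.2 FPKM (1.95-fold). Irf1, an activator of many effector genes that is itself induced by interferon, was at 19.7 and 39.0 FPKM (1.98-fold). Of these only Stat2 passed the 2-fold rule, and its sum is one of those that differ between the tables. Irf2, which competes with IRF1 and is known to restrain interferon signalling in HSCs, was the most abundant factor gene in both columns, at 43.3 and 64.6 FPKM. Irf7, which amplifies type I interferon production, was at 4.64 and 6.78 FPKM. Irf3 and Irf5, unlike Irf7, had lower values in BM, within 2-fold. Irf3 was at 23.6 and 15.97 FPKM, with a sum that differs between the tables, and Irf5 at 15.2 and 9.86 FPKM.

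The 3 Ifitm genes were the most abundant members under FL and under BM alike. The IFITM proteins block the fusion of viruses with cell membranes. Ifitm2 was at 405 in FL and 548 FPKM in BM, Ifitm1 at 327 and 507 FPKM, and Ifitm3 at 220 and 471 FPKM. Only Ifitm3 (2.14-fold) passed the rule. The 3 genes are neighbours with similar sequences, so reads shared among them make their separate values uncertain. Bst2, which encodes the virion tether tetherin, had the same level in both columns, at 82.2 and 81.9 FPKM.

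Genes of the IFIT family, whose proteins bind viral RNA and block its translation, were low. Ifit2 was at 4.72 in FL and 11.2 FPKM in BM (2.37-fold) and Ifit1 at 0.782 and 2.86 FPKM (3.65-fold). Ifit3, at 0.623 and 1.05 FPKM, was within 2-fold and has near-identical copies. Isg15, which encodes a ubiquitin-like modifier and is among the most inducible genes of the response, was not higher in BM, at 6.20 and 5.97 FPKM. Usp18, which removes ISG15 from proteins and blocks signalling at IFNAR2, was at 1.61 and 3.66 FPKM (2.27-fold). Isg15 and Bst2 thus stood at nearly equal levels in both columns, and their promoters held 3 and 2 ISRE matches.

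Among the other antiviral effectors, 6 of 12 expressed genes were higher and none lower, beside 13.3% and 8.82% of all expressed genes. Oas3 (1.04 and 4.40 FPKM, 4.22-fold) belongs to the oligoadenylate synthetases, which are activated by double-stranded RNA, and Oasl2 (5.55 and 19.3 FPKM, 3.48-fold) is related to them. Rsad2, which encodes the antiviral enzyme viperin, was at 0.989 and 3.73 FPKM (3.77-fold), Mx2 at 0.705 and 2.40 FPKM (3.40-fold) and Ifi27, a mitochondrial protein gene, at 18.9 and 64.1 FPKM (3.38-fold). Parp14, an ADP-ribosyltransferase gene, was at 4.28 and 10.1 FPKM (2.37-fold). Rtp4 (4.37 and 8.86 FPKM) and Xaf1 (6.56 and 13.2 FPKM) stood at the threshold, each with a relative log2 ratio of 0.996, just under 2-fold, and both were called without centring. The remaining genes were within 2-fold. These were the kinase gene Eif2ak2, whose product PKR halts translation, at 11.4 and 17.7 FPKM, Ifi35 at 19.9 and 27.3 FPKM, Oas2 at 1.18 and 1.56 FPKM and the nucleotide-degrading enzyme gene Samhd1 at 49.9 and 46.0 FPKM.

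All 3 genes of cytosolic RNA sensors were higher in BM, beside 13.3% of all expressed genes. Ifih1, which encodes MDA5, was at 3.28 and 12.4 FPKM (3.77-fold), Ddx58, which encodes RIG-I, at 6.18 and 16.4 FPKM (2.65-fold) and Dhx58, which encodes the modulator LGP2, at 5.91 and 12.2 FPKM (2.07-fold). The FL sum of Ifih1 was 0.629 of its value in BM of the gene table, so its sums and its fold are uncertain, in a direction that is not known. Trim25, a ubiquitin ligase gene needed for RIG-I signalling, was lower in BM within 2-fold, at 19.4 and 14.1 FPKM.

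Interferon-inducible GTPases, which act on the vacuoles of intracellular parasites and bacteria, had the highest median of the 8 groups (1.76). Of 7 genes 6 were higher, beside 13.3% of all expressed genes. Iigp1 was at 0.476 in FL and 9.22 FPKM in BM (19.4-fold), and 96 of 12220 expressed genes (0.786%) had a higher ratio. Gbp2 was at 3.60 and 18.1 FPKM (5.04-fold), Gbp3 at 2.52 and 10.3 FPKM (4.10-fold) and Gbp7 at 6.49 and 19.7 FPKM (3.04-fold). The guanylate-binding protein genes form a family, and reads may be split among them. Irgm2 (2.75 and 9.58 FPKM, 3.49-fold) and Igtp (7.04 and 16.3 FPKM, 2.31-fold), which share the promoter run shown above, were higher as well. Irgm1, which is known to be needed for HSCs to withstand interferon signalling, was the most abundant of the group in both columns and was within 2-fold, at 17.5 and 32.0 FPKM. Genes of this group that differed widely in FL, over a range of 0.476 to 17.5 FPKM, stood between 9.22 and 32.0 FPKM in BM.

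The immunoproteasome subunits, which cut proteins into peptides for MHC class I, were abundant in both columns. Psmb8 was at 99.0 in FL and 216 FPKM in BM (2.18-fold), and Psmb10 at 56.8 and 75.6 FPKM. Across all members of the transcript table, 5 genes were under 1 FPKM in FL and at 1 FPKM or more in BM: Ifit1, Ifit3, Mx2, Rsad2 and Iigp1. The median level of the 46 genes was 6.52 in FL and 15.1 FPKM in BM.

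**Figure D3:**
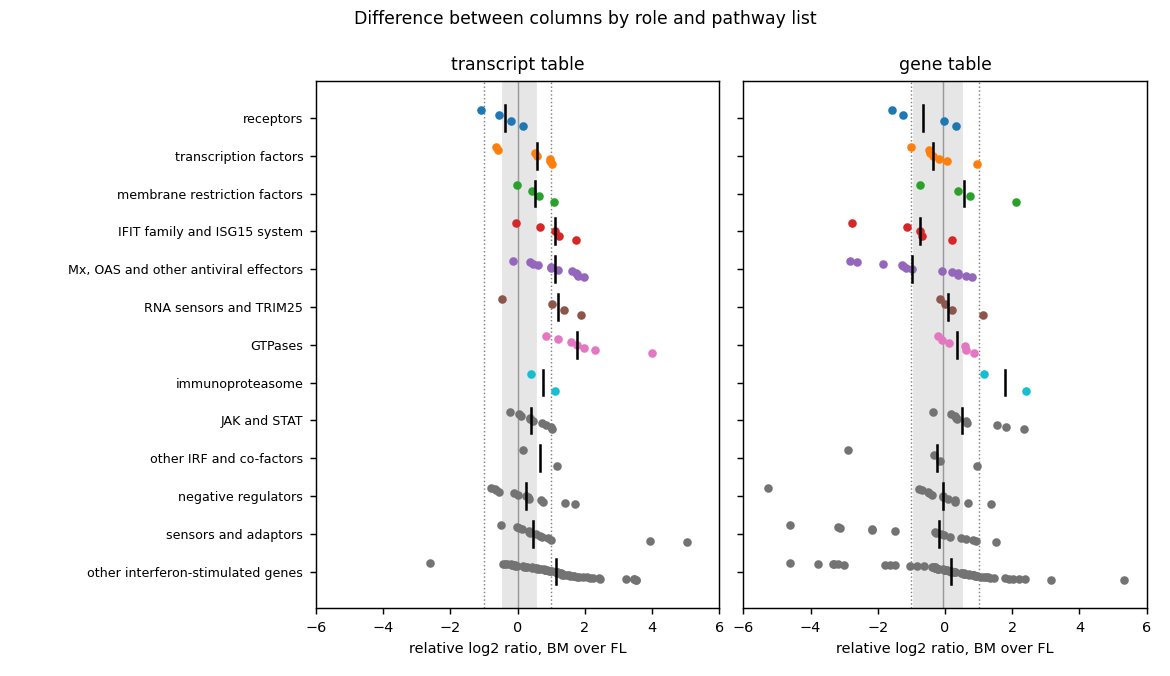
Relative log2 ratio of BM over FL (x axis) of expressed genes by role and by pathway list, for the transcript table (left) and the gene table (right); each point is a gene, black bars are medians, the grey band spans the quartiles of all expressed genes and dotted lines mark 2-fold. In the transcript table the GTPase group has the highest median of the 8 roles (1.76), whereas in the gene table most groups straddle 0.

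Transcript composition showed which isoforms carried these levels. At 10 FPKM or more in either column there were 32 members, of which 20 had 2 or more transcripts at 1 FPKM or more. The leading transcript was the same in both columns for 18 of them, and differed for Ifnar2 and Ifitm1. Samhd1, whose sum hardly differed, held a retained-intron transcript (Samhd1-209) at 26.8 in FL and 15.8 FPKM in BM, while the coding transcript Samhd1-201 was at 7.16 and 14.8 FPKM. The minor isoforms of Irf5 were lower in BM: Irf5-202 made up 44.3% of the sum in FL and 81.5% in BM, with Irf5-201 at 3.06 and 0.274 FPKM. In Ifnar2 the coding transcript Ifnar2-203 took 49.1% of the sum in FL and 30.6% in BM. Of Oasl2, a transcript annotated as subject to nonsense-mediated decay (Oasl2-205) made up 53.4% and 41.8%, and coding transcripts 46.6% and 55.3%. The share of coding transcripts of Ifi27 was 72.4% in FL and 54.2% in BM, while its retained-intron transcript Ifi27-206 was at 2.92 and 17.04 FPKM. Cufflinks, which the submitters' processing notes name, divides reads among overlapping isoforms by a model, so these shares are estimates without error.

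**Figure D4:**
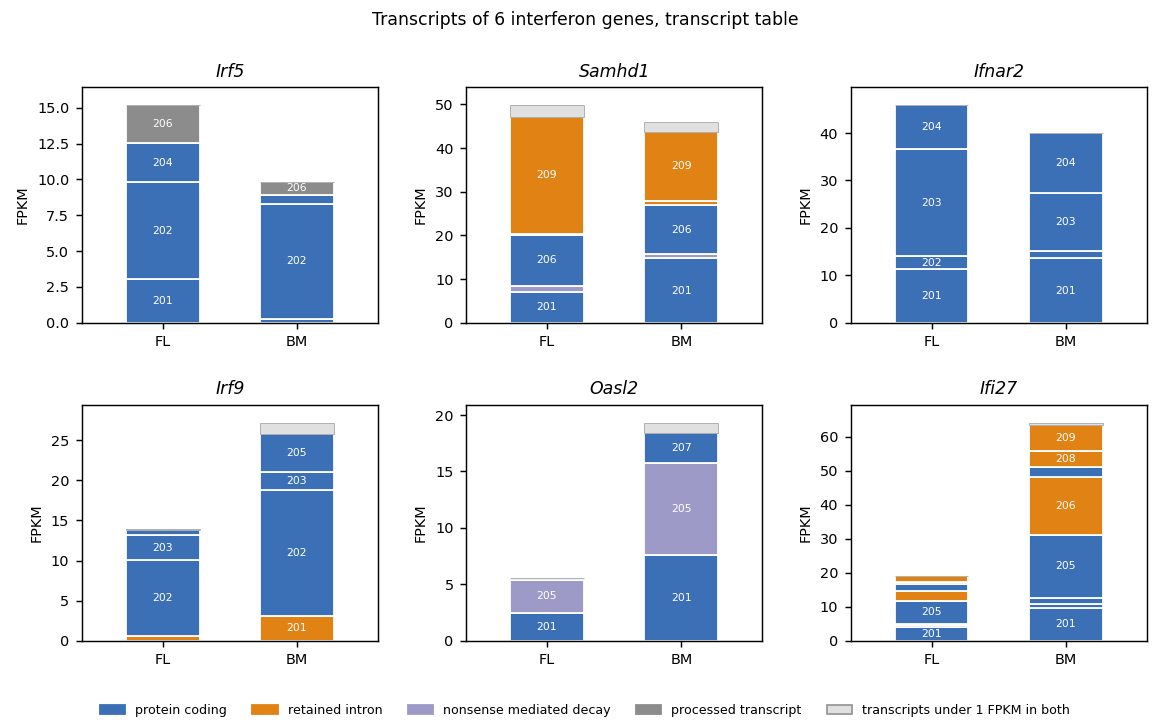
Stacked FPKM of the linked transcripts of 6 genes in FL and BM of the transcript table; colours give the annotated biotype, numbers in the bars the transcript's suffix, and pale grey the transcripts under 1 FPKM in both columns. Irf5-202 takes 81.5% of Irf5 in BM against 44.3% in FL, and Samhd1-201 is at 14.8 FPKM in BM against 7.16 FPKM in FL.

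Other genes of the pathway were read from 6 lists. No interferon gene listed in the transcript table was expressed. Of 19 ligand genes, 11 were in that table, 10 of them at 0 in both columns, and Ifnz was at 0.0764 and 0.410 FPKM. Ifna7, Ifna9 and Ifna14 were in neither table, so their expression is unknown. JAK and STAT genes were mostly alike in both columns (1 of 10 higher, none lower, median 0.41), beside 13.3% higher and 8.82% lower among all expressed genes. Stat5a (49.6 and 67.9 FPKM), Stat3 (47.7 and 61.4 FPKM) and Stat5b (53.0 and 56.8 FPKM), which serve many cytokines, were abundant. Jak1, which serves both receptor types, was at 71.5 and 92.5 FPKM. The called gene, Jak3, had a transcript sum of 8.01 FPKM in FL against 59.3 FPKM in BM of the gene table, so its sum may be incomplete. Of 13 negative regulators none was lower and 2 were higher (median 0.24), near the 13.3% of all expressed genes. These were Socs1, an inhibitor of JAK kinases, at 2.74 and 7.50 FPKM, and Cish at 4.65 and 15.4 FPKM, whereas the phosphatase genes Ptpn6 (151 and 96.5 FPKM), Ptpn1 (92.5 and 63.5 FPKM), Ptpn11 (39.7 and 37.1 FPKM) and Ptpn2 (25.1 and 29.9 FPKM) were within 2-fold. Among other IRFs and co-factors, Irf2bp2 was within 2-fold (28.6 and 32.3 FPKM) and Irf4 was at 0.427 and 0.0429 FPKM. Of 14 expressed sensor and adaptor genes 2 were higher (median 0.45), again near the 13.3% of all expressed genes. These were Zbp1, a sensor of Z-form nucleic acid, at 0.0802 and 5.88 FPKM, and Nlrc5 at 0.788 and 13.6 FPKM. Nlrc5 encodes the transactivator of MHC class I genes. Myd88 (30.4 and 39.2 FPKM), Aim2 (17.8 and 28.7 FPKM), Tbk1 (15.5 and 19.8 FPKM) and Ikbke (7.65 and 14.6 FPKM) were within 2-fold. Among 61 further expressed interferon-stimulated genes 32 were higher and 1 lower (median 1.13), beside the 13.3% and 8.82% of all expressed genes. The most abundant were within 2-fold, with the proteasome activator genes Psme1 (259 and 291 FPKM) and Psme2 (151 and 118 FPKM), Lgals9 (168 and 151 FPKM) and Shisa5 (59.7 and 104 FPKM). Higher ones were Tgtp2 (7.67 and 88.9 FPKM, a GTPase gene with a near-identical copy), Sp100 (12.8 and 54.5 FPKM), a nuclear body gene, and Tap1 (20.6 and 73.4 FPKM) and Tap2 (22.2 and 66.4 FPKM), the genes of the peptide transporter. Lgals3bp (32.2 and 102 FPKM), Ifi203 (21.99 and 55.3 FPKM), Uba7 (18.4 and 51.7 FPKM), which encodes the enzyme that activates ISG15, Ifi47 (21.3 and 47.3 FPKM) and Ly6a (6.62 and 36.0 FPKM), which encodes the HSC surface protein Sca-1, were higher as well. So were Isg20, Tgtp1, Sp140, Trim30a, Parp9, Ifi44l, Ifi44, Gbp5, Oas1c, Oas1g, Trim34a, Slfn8, Slfn5 and Herc6, which stood between 5.02 and 23.5 FPKM in BM. Tgtp1 and the Oas1 genes have near-identical copies. Ifi27l2a, at 4.82 and 0.707 FPKM, was the lower one. By the same rule in the gene table, 3 of 10 JAK and STAT genes, 0 of 4 other IRFs and co-factors, 1 of 13 negative regulators, 1 of 16 sensors and adaptors and 13 of 61 further interferon-stimulated genes were higher in BM, and 0, 1, 1, 6 and 10 were lower, beside 12.3% higher and 23.6% lower among all expressed genes of that table; the 10 ligand genes it lists were at 0. For 45 of 58 further interferon-stimulated genes at 1 FPKM or more in FL of the transcript table or BM of the gene table, those values lay within 1.5-fold of each other. Psme2, Shisa5, Uba7, Herc6, Oas1g and Tgtp1, named above, lay outside, so their sums and folds are uncertain. Their FL sums were 0.642, 0.449, 0.606, 0.578, 1.83 and 6.09 of their values in BM of the gene table.

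In the gene table the effectors were not higher as a group. Its FL column stood apart by its markers: those of endothelium (6 genes) summed to 2026 in FL and 51.1 FPKM in BM, those of stroma (5 genes) to 736 and 11.6 FPKM, and those of macrophages (9 genes) to 709 and 200 FPKM. Neutrophil and monocyte markers (7 genes) summed to 38.7 and 517 FPKM. The 9 HSC markers summed to 510 and 579 FPKM and differed in direction, with Procr at 121 and 54.0 FPKM and Slamf1 at 0.652 and 14.9 FPKM. Of 45 expressed members 4 were higher in BM and 11 lower (median -0.08), beside 12.3% higher and 23.6% lower among 13834 expressed genes (median -0.07). At 3-fold 2 members were higher and 4 lower, beside 6.36% and 17% of all expressed genes, and at 1.5-fold 11 and 15, beside 22.2% and 31.9%. The share of lower members thus lay near the background. The gene-wide median shift of 0.24 (log2) that was subtracted mattered here: without it 7 members were higher and 7 lower, beside 17.2% and 20.4% of all expressed genes.

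Of 34 expressed effectors 8 were lower in BM of the gene table and 4 higher, beside the 23.6% and 12.3% of all expressed genes. Rsad2 was at 6.75 in FL and 1.05 FPKM in BM (6.43-fold lower), Ifit3 at 3.39 and 0.507 FPKM (6.67-fold), Mx1 at 2.94 and 0.485 FPKM (6.06-fold) and Oas2 at 4.67 and 1.46 FPKM (3.21-fold). The receptor genes Ifnar1 (47.7 and 19.0 FPKM, 2.52-fold) and Ifngr2 (25.1 and 12.3 FPKM, 2.04-fold) were lower too, as was Xaf1 (14.7 and 7.07 FPKM, 2.08-fold). Calls for Irf7, Isg15, Mx2 and Rtp4 were lost without centring. The higher members were Psmb8 (16.5 and 104 FPKM, 6.29-fold), Ifitm1 (67.9 and 344 FPKM, 5.08-fold), Ifih1 (1.97 and 5.21 FPKM, 2.65-fold) and Psmb10 (22.6 and 59.5 FPKM, 2.64-fold). The 6 expressed GTPase genes were within 2-fold here, with Gbp2 at 3.38 and 3.75 FPKM, Gbp3 at 2.58 and 2.64 FPKM and Irgm2 at 2.10 and 2.72 FPKM. Iigp1 was under 1 FPKM in both columns, at 0.697 and 0.496 FPKM. The 3 members that joined the higher ones without centring were Irf2 (19.6 and 45.0 FPKM), Oas3 (0.482 and 1.09 FPKM) and Irgm1 (8.61 and 18.7 FPKM). Factor genes of the ISRE complex had like values in both columns, with Stat2 at 8.47 and 7.88 FPKM and Irf9 at 17.9 and 15.1 FPKM, as did Irf1 at 24.4 and 21.2 FPKM. Ifitm3, at 114 and 227 FPKM, and Ifitm2, at 269 and 414 FPKM, were within 2-fold after centring, and the type I receptor gene Ifnar2 was at 37.2 and 42.7 FPKM. The tables share the values headed BM in one and FL in the other for most genes, so their ratios are not independent of each other. Higher and lower in BM of the gene table thus follow the header and are not read as adult against fetal. How far the endothelial, stromal and macrophage markers of the FL column bear on its interferon genes was not tested.

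**Figure D5:**
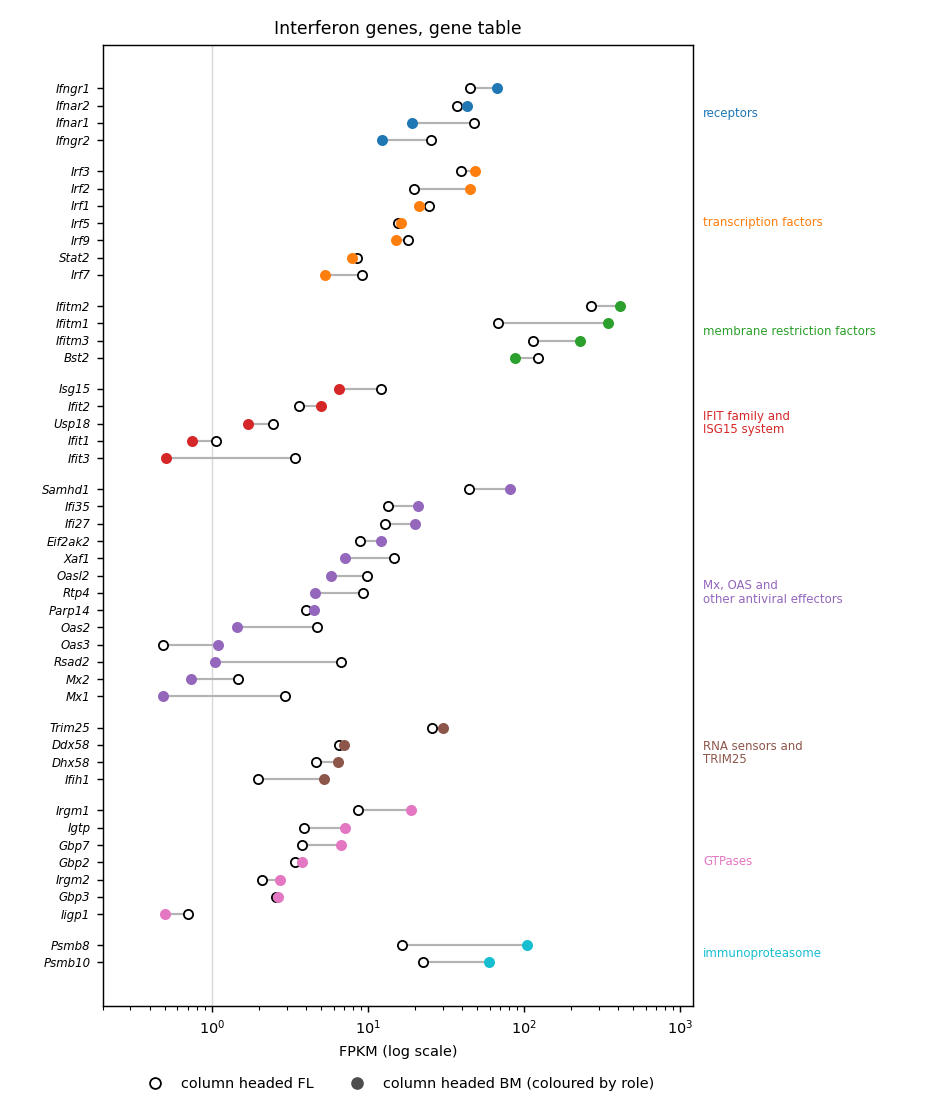
FPKM (log axis) of the 46 genes in the gene table, grouped by role, with open circles for FL and filled circles for BM; each circle is 1 column value without error. Filled circles lie far to the right for Psmb8 (16.5 to 104 FPKM) and Ifitm1 (67.9 to 344 FPKM) and to the left for Rsad2, Ifit3, Mx1 and Oas2.

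All 4 columns are set side by side for a few members. In the gene table Gbp2 was at 3.38 FPKM under FL and 3.75 FPKM under BM, and in the transcript table at 3.60 FPKM under FL and 18.1 FPKM under BM. Ddx58 was at 6.51, 6.99, 6.18 and 16.4 FPKM in the same order, and Ifih1 at 1.97, 5.21, 3.28 and 12.4 FPKM. For these genes the BM column of the transcript table was the highest of the 4. For Bst2 (123, 86.7, 82.2 and 81.9 FPKM) and Isg15 (12.1, 6.52, 6.20 and 5.97 FPKM) the FL column of the gene table was the highest, and for Samhd1 (44.2, 81.2, 49.9 and 46.0 FPKM) it was BM of the gene table. As the tables were normalised separately, these are levels and not tested differences.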

How the data were processed

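The authors deposited FPKM per gene and, in another table, per transcript, in columns headed FL and BM. Per the submitters' processing notes the tools included TopHat, Cufflinks, Subread with featureCounts, and edgeR, on mm9, with no role or version; the annotation release is not given in these sources. Among non-zero FL values per gene, 66.4% have the repeating decimals that a mean of 3 leaves, against at most 0.0224% in the other columns. Only that column thus shows the trace of a mean of 3. Reading the other columns as the authors' means is an assumption that the decimals do not bear on. Identifiers were linked to symbols and genes through the GENCODE annotation of GRCm38 (76507 of 87641 transcripts), and transcript FPKM were summed per gene. Older symbols were matched to current ones. No coordinates from the tables are printed, since builds differ; promoters are RefSeq, GRCm38.p6.

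Relative log2 ratios used a pseudocount of 0.1 FPKM and were centred on the median of genes detected (1 FPKM) in each column. The calculation was tested on simulated data. FPKM retain no depth, so no interval is given. All 46 members are named; of the other lists, the 4 highest genes and those past 2-fold at 5 FPKM or more, apart from some genes that are not reported here. Members, lists and alternatives were chosen with earlier results of these data known. Other pseudocounts, scalings, filters, folds and transcript sums were tried. The samples' 2 libraries are not separate columns, and both tables' BM columns were assigned to the adult group by header alone. Hmga2 and Lin28b, typical of fetal HSCs, stood at 96.5 and 9.65 FPKM in BM of the gene table. The values of that column thus do not bear out an adult label. Python 3.11.15, numpy 2.4.6, pandas 2.3.3 and matplotlib 3.10.9 were used.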

Additional observations from a re-analysis of the deposited data

How the results depend on the processing

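No paired analysis was possible because the columns carry no replicate values, and for the same reason no library could be left out. A change of a median under 0.1 (log2) was taken as small. In the transcript table the count of higher members, 21, ranged from 16 to 23 under other pseudocounts, scalings, filters and transcript sums, and was 29 at 1.5-fold and 11 at 3-fold. The count of lower members, 1, was 0 with a pseudocount of 1 FPKM, at 3-fold and with the most abundant transcript only, and 2 at 1.5-fold. The median of 0.996 was 0.87 with a pseudocount of 1 FPKM. In the gene table the count of higher members, 4, was 7 without centring, 11 at 1.5-fold and 2 at 3-fold. The count of lower members, 11, was 7 without centring, 7 among members at 5 FPKM or more and 4 at 3-fold. Its median of -0.08 was 0.16 without centring, -0.21 under upper-quartile scaling and 0.060 among members at 5 FPKM or more. No called member changed sign under the pseudocounts, scalings and transcript sums tried, but members within 2-fold did, such as Irf5 (-0.63, and 0.29 with the most abundant transcript only) and Samhd1 (-0.13, and 0.44 with coding transcripts only). With protein coding transcripts only, 4 of 46 members crossed 2-fold in the transcript table (Irf1, Mx1, Rtp4 and Dhx58). With the most abundant transcript only, 5 did (Ifngr2, Irf1, Rtp4, Dhx58 and Irgm1), and with a pseudocount of 1 FPKM another 5 (Ifngr2, Stat2, Usp18, Mx2 and Dhx58). Beyond construction, such as fewer genes under a stricter filter, the cause of these moves was not tested. The depth behind the low genes, such as Mx1, Ifit3 and Iigp1 in FL, is unknown.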

Other observations

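Many of the interferon genes lie next to each other, by the order of protein coding genes in RefSeq (44 of 46 members matched). The receptor genes Ifnar2, Ifnar1 and Ifngr2 form a row on chromosome 16 that holds 1 further gene, Il10rb, a receptor chain of interferon lambda and interleukin 10. In the transcript table Il10rb stood at 11.3 in FL and 14.2 FPKM in BM, Ifnar1 at 18.1 and 20.6 FPKM, and Ifngr2, next to Ifnar1, at 11.8 and 5.57 FPKM. On chromosome 5, Oas2 (1.18 and 1.56 FPKM) and Oas3 (1.04 and 4.40 FPKM) are adjacent and had nearly the same level in FL. On chromosome 3, Gbp7, Gbp3 and Gbp2 stand in a row with 1 gene, Gbp2b, between the last 2, and all 3 were higher in BM. On chromosome 19, Ifit2 and Ifit3 are adjacent, at 4.72 and 0.623 FPKM in FL and 11.2 and 1.05 FPKM in BM.

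Members with and without an ISRE match in the RefSeq promoter were counted after the values were known. Of 19 genes with a match 12 were at least 2-fold higher in BM of the transcript table, and of 18 without one 3 were, beside 13.3% of all expressed genes. The members were listed as interferon genes, which links matches and membership, and no test was made of these counts. Match and role are linked too, as 0 of 4 receptors and 2 of 7 factors held a match. Members without a RefSeq promoter are not counted. Of those, Usp18, Mx2, Parp14, Ifi27, Dhx58 and Iigp1 were higher in BM, and Mx1, Oas2 and Rtp4 were not called higher. The 7 genes with a match that were within 2-fold were Isg15, Bst2, Ifitm2, Irgm1, Irf2, Ifit3 and Eif2ak2.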
